A study of Homo sapiens with 8 samples.

Results

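RU-486 and progesterone, each given alone, were compared in the human astrocytoma line U373, an established cell line. Cells treated with 1 µM RU-486 for 12 h (2 arrays) were set against cells treated with 10 nM progesterone for 12 h (2 arrays), which makes 4 of the 8 arrays of the study. The remaining arrays came from cells given both steroids (2 arrays) and from vehicle-treated cells (2 arrays). All 8 arrays shared 1 estimate of the spread, and the vehicle arrays show on which side of untreated cells each steroid lay. The comparison covers every probe set that the platform annotation pairs with 1 gene symbol, with the brightest probe set kept for a gene that has several, and 18417 genes were tested. Cells of all groups had first been held in medium with hormone-free serum. RU-486 was given at 100 times the concentration of progesterone, so a difference between the arrays cannot be told apart as one of compound or one of dose. The labels call the replicates biological but name no separate cultures, and a p-value then reflects only how far these arrays spread, which may be technical. The cell line field of the labels shortens the name U373, and the descriptions of the RU-486 samples give another compound number, read here as the drug named in their titles.

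Progesterone is a steroid hormone that enters cells and binds the nuclear progesterone receptor, a transcription factor, and it also binds proteins of cell membranes. RU-486, or mifepristone, has the same steroid ring system with a bulky dimethylaminophenyl group that progesterone lacks. It blocks the progesterone receptor and the glucocorticoid receptor. Many genes named below belong to the amino acid response, in which stress kinases slow general translation while the mRNA of the transcription factor ATF4 is translated more, and ATF4 then switches on genes for amino acid synthesis, uptake and tRNA charging.

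Values are log2 expression levels, and a difference of 1 is a doubling. Levels of different probe sets are not comparable with each other, so the groups are compared within a gene. The exception is a level set against the olfactory receptor genes below, which is only a rough guide. The 8 array medians ran from 6.93 to 7.02, and the number of arrays limits the precision. The progesterone arrays resembled each other less than the other pairs did. The SD over genes of replicate 1 minus replicate 2 was 0.155 for RU-486 and 0.346 for progesterone, beside 0.169 for the combination and 0.180 for vehicle. Between the RU-486 arrays 127 genes were over 0.5 apart, and between the progesterone arrays 2176 genes. On the axis that held 66.4% of the variance within groups, the RU-486 arrays scored 4.23 and -3.84. The vehicle arrays scored -3.71 and -18.7 and the combination arrays 16.75 and 8.11, so values against vehicle also depend on this axis. The axis was built from the differences within pairs, so it largely follows the pair that differed most. The progesterone arrays lay at opposite ends, at 21.8 and -24.7, which follows largely from this construction. Since these arrays differ, list medians are also given against each progesterone array where the 2 values differ in sign or by over 1.5 times. Over all genes these medians were -0.03 against replicate 1 and 0.04 against replicate 2.

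The U373 label was set against astrocyte and glioma markers. Vimentin (VIM), an intermediate filament, had a mean level over the 8 arrays of 13.4, the calcium-binding protein S100B 9.59 and the glial filament GFAP 7.54. All 3 lay above all 338 olfactory receptor genes, most of which are silent in non-olfactory tissue and which serve here as a dim background with a median of 4.64. A level under 6.23, their 95th percentile, is called dim, and 4422 genes were dim on every array. Of the astrocyte and glioma markers, 1 of 16 was higher in both RU-486 arrays than in both progesterone arrays, the glutamate transporter SLC1A3, and 4 were lower, where 17.0% of all genes were higher and 10.3% lower. 3 of the 16 were dim on every array. A level above the dim range does not by itself name the cell type, since some markers of other cell types had one too. NEFL, a neuronal filament, had levels of 8.78 and 8.74 in RU-486 arrays, and TYROBP, a microglial adaptor, 7.72 and 7.62.

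Genes of amino acid synthesis, uptake and stress led the comparison of RU-486 with progesterone by p, with higher values after RU-486. None passed the test. A gene was called at a limma adjusted p under 0.05 (moderated test, two-sided, Benjamini-Hochberg over all genes), and 0 of 18417 genes (0.00%) were called. The smallest limma adjusted p was 0.178, shared by ASNS and CHAC1. At an unadjusted p under 0.05 there were 852 genes, fewer than the 921 expected if no gene differed. Of these, 592 were higher (3.21% of all genes) and 260 lower (1.41%) in RU-486 arrays. That balance rested on the progesterone arrays, since without progesterone replicate 2 the counts were 1382 higher and 2456 lower, and without replicate 1 they were 1316 higher and 1177 lower. With a principal component of the deviations as covariate, itself drawn from the spread within groups, they were 1227 higher and 1420 lower. Both RU-486 arrays lay above both progesterone arrays for 3135 genes (17.0%) and below them for 1895 genes (10.3%). An exact permutation test of 2 arrays against 2 cannot give a two-sided p under 0.333. The median difference over all genes was -0.0037, beside which the medians of gene lists below are to be read. Among the 50 genes with the smallest p, 46 were higher in RU-486 arrays and 17 were members of the 4 amino acid gene lists described below. Those lists hold 20, 12, 12 and 19 measured genes of the 18417 tested. They were chosen with earlier results of these data known, so the count of 17 is no independent support. RU-486 against vehicle and progesterone against vehicle gave 0 called genes each (0.00% and 0.00%). The 12 leading genes each way were taken by p among genes whose RU-486 and progesterone arrays do not overlap, so that their arrays stand apart follows from the choice. The comparisons with vehicle share the vehicle arrays, and their values are given side by side only to show on which side of vehicle each steroid lay.

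ASNS, asparagine synthetase, had levels of 9.65 and 10.01 in the RU-486 arrays, against 8.62 and 8.52 in the progesterone arrays and 8.81 and 8.85 in the vehicle arrays. The RU-486 arrays were the highest of these 6 and the progesterone arrays the lowest. Group means were 9.83 ± 0.25 after RU-486 and 8.57 ± 0.08 after progesterone (SD, n = 2 each), a difference of 1.26 ± 0.12 (SE) or 2.39-fold, with a limma 95% interval from 0.97 to 1.55 and an adjusted p of 0.178. RU-486 lay 1.00 above vehicle and progesterone 0.26 below it. CHAC1, an enzyme that degrades glutathione, had levels of 8.56 and 8.71 in RU-486 arrays, against 7.77 and 7.58 in progesterone arrays and 7.86 and 7.81 in vehicle arrays. Its order of groups was that of ASNS. The difference was 0.96 ± 0.10 (limma adjusted p = 0.178), made up of 0.80 above vehicle for RU-486 and 0.16 below it for progesterone.

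Promoter sequences of ASNS and CHAC1, the genes with the smallest p, are shown because both hold the composite site that C/EBP and ATF factors bind in genes of the amino acid response. The letters searched were TGATGNAA on both strands in the 250 bases before the gene start, in the RefSeq promoter table for GRCh38.p14, and 3.89% of 27305 genes hold them. Capitals mark the match. The ASNS stretch is chr7:97872429-97872516 on the minus strand, with the match 68 to 61 bases before the start, and the CHAC1 stretch is chr15:40953222-40953309 on the plus strand, with the match 209 to 202 bases before the start and read on the opposite strand.
ASNS: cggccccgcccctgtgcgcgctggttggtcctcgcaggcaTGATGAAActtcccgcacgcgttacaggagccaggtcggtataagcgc
CHAC1: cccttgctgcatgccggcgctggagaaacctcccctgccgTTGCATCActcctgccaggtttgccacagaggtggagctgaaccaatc
Of the 6 ATF4 list genes named by the rule, 5 are in the table, without NUPR1, and the composite site was found in 2 of them. The cyclic AMP response element TGACGTCA, which 2.03% of promoters hold, was found in 0 of the 5. The steroid receptor motif AGAACA, held by 14.8%, was found in 2, ASNS and ATF4. Over the whole ATF4 list, searched after its values were seen, 5 of the 19 genes in the table held the composite site: ASNS, ATF3, CEBPG, CHAC1 and JDP2. A match describes these letters only and says nothing of binding in these cells.

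**Figure D1:**
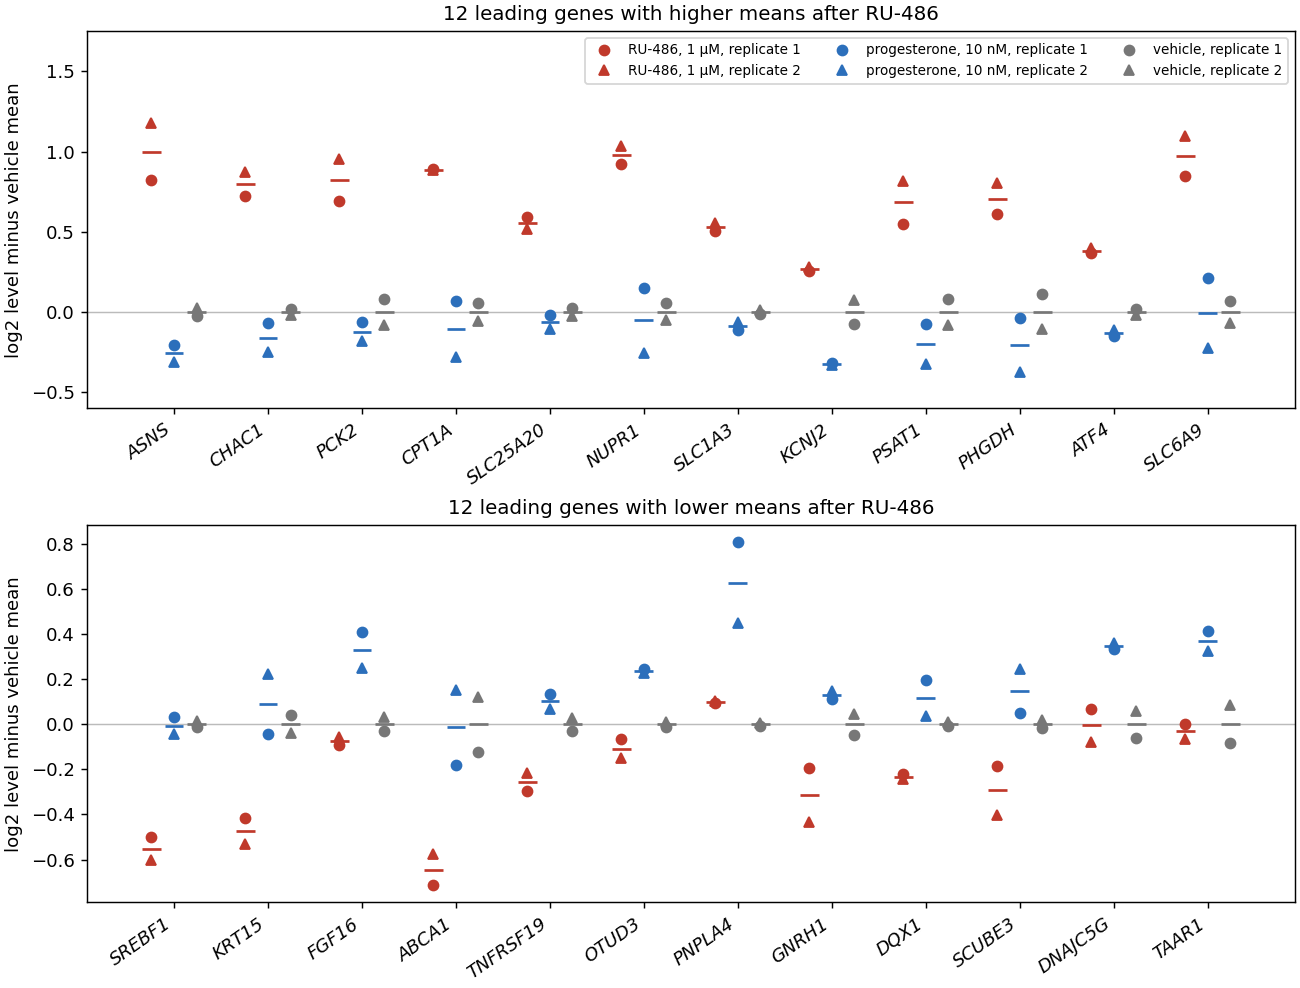
Log2 level minus the vehicle mean for the 12 leading genes with a higher mean after RU-486 (top) and the 12 with a lower one (bottom), by array, with replicate 1 as circles, replicate 2 as triangles and group means as bars. In the top panel RU-486 (red) lies farther from vehicle (grey) than progesterone (blue) does for 11 of 12 genes, and in the bottom panel for 7 of 12.

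In most of the other leading genes with higher values after RU-486, the greater distance lay between RU-486 and vehicle. PCK2, mitochondrial phosphoenolpyruvate carboxykinase, had levels of 9.06 and 9.32 in RU-486 arrays, against 8.30 and 8.18 in progesterone arrays. NUPR1, a stress-induced chromatin protein, had 10.88 and 10.99 in RU-486 arrays, against 10.10 and 9.70 in progesterone arrays. ATF4 itself had 10.93 and 10.96 in RU-486 arrays, against 10.41 and 10.45 in progesterone arrays. For these 3 genes the limma adjusted p was 0.322, 0.322 and 0.437, with differences of 0.94 ± 0.11, 1.03 ± 0.14 and 0.51 ± 0.08. The probe sets of ATF4 disagreed in size, since the dimmer of its 2 probe sets differed by 0.10 (limma unadjusted p = 0.254) and their mean by 0.31. For 11 of the 12 leading genes RU-486 lay farther from vehicle than progesterone did, and for all 12 the 2 steroids lay on opposite sides of vehicle. Choice by the difference between the steroids favours opposite sides. The progesterone means lay from -0.0067 (SLC6A9) to -0.33 (KCNJ2) from vehicle, so some were next to it. The exception in distance was KCNJ2, an inward rectifier potassium channel, at 7.62 and 7.64 in RU-486 arrays, against 7.04 and 7.03 in progesterone arrays and 7.29 and 7.44 in vehicle arrays. There RU-486 lay 0.27 above vehicle and progesterone 0.33 below it.

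Genes regulated by ATF4 or by amino acid shortage had, by group means, the largest median difference of the 40 gene lists. Of 20 measured members 18 were higher in both RU-486 arrays than in both progesterone arrays and 0 were lower, where 17.0% and 10.3% of all genes were. At an unadjusted p under 0.05, 14 members were higher and 0 lower, and 0 were called. The median difference was 0.34, beside -0.0037 over all genes. Against progesterone replicate 2 alone it was 0.35, below 0.41 for the serine list and 0.36 for the ERK feedback list described below. Against vehicle the median of the ATF4 list was 0.20 for RU-486 and -0.09 for progesterone, and such medians need not add up. Some members lay farther from vehicle after progesterone than after RU-486. SESN2, sestrin, a stress-induced restraint on growth signalling, had levels of 7.85 and 7.92 in RU-486 arrays, against 7.29 and 7.36 in progesterone arrays. DDIT3, the stress transcription factor CHOP, had 8.87 and 8.96 in RU-486 arrays, against 8.25 and 8.47 in progesterone arrays. SESN2 lay 0.22 above vehicle with RU-486 and 0.33 below it with progesterone, and DDIT3 0.19 above and 0.36 below. TRIB3, a pseudokinase that feeds back on ATF4, differed by 0.82 ± 0.15, with 0.73 of it above vehicle. SESN2, DDIT3 and TRIB3 were chosen after their values were seen. The 2 members whose arrays overlapped were VLDLR, a lipoprotein receptor, at 0.09 ± 0.10, and KLHL24 at -0.19 ± 0.21. In bulk RNA such as this, fewer cells of a kind and less RNA per cell cannot be told apart.

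**Figure D2:**
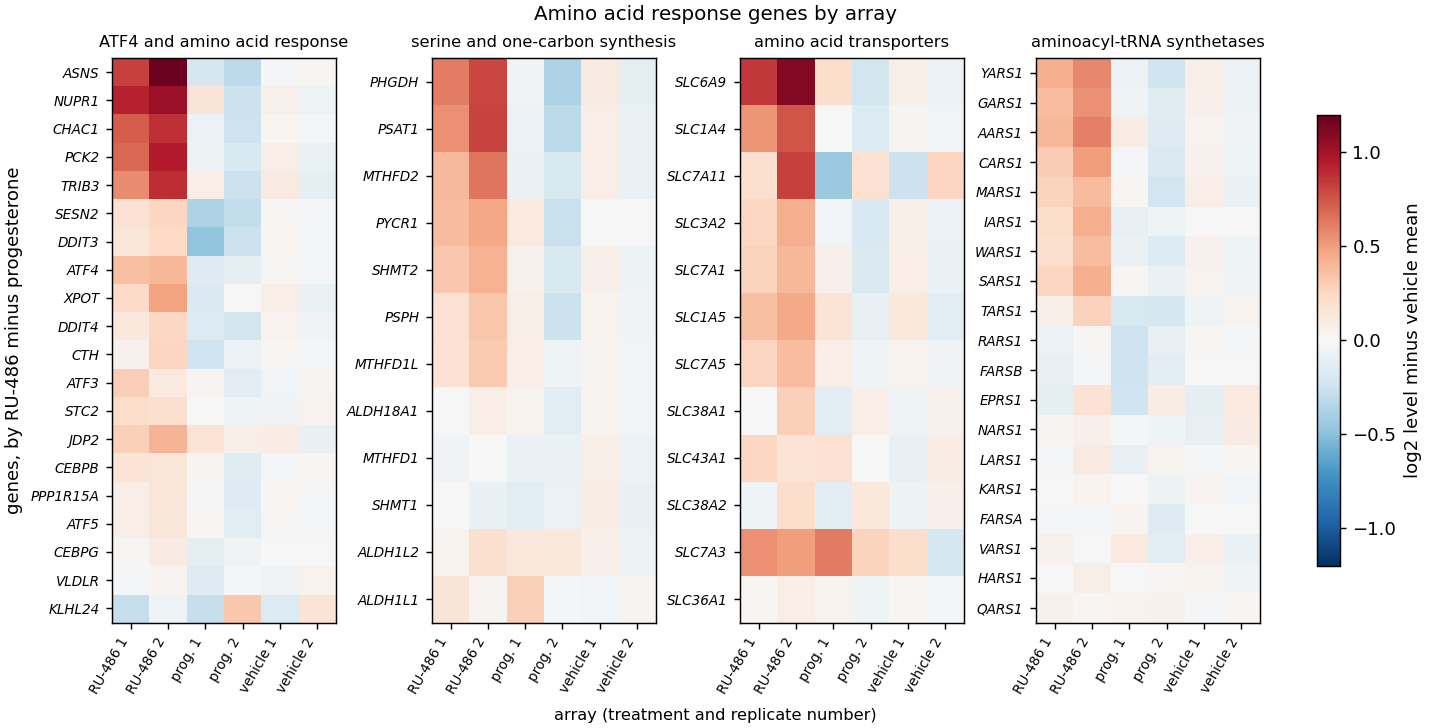
Log2 level minus the vehicle mean for every measured gene of the ATF4, serine and one-carbon, amino acid transporter and aminoacyl-tRNA synthetase lists, by array, with genes ordered by RU-486 minus progesterone. The red cells sit in the RU-486 columns of the upper rows of each panel, and the lower rows of each panel are pale in all 6 columns apart from genes such as SLC7A3 and KLHL24.

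Enzymes of serine synthesis and of the one-carbon units made from serine held 0 called genes, and 10 of 12 had a higher mean after RU-486. Of 12 measured, 8 were higher in both RU-486 arrays and 0 lower (17.0% and 10.3% over all genes), 7 at an unadjusted p under 0.05, and the median difference was 0.30. The median was 0.18 against progesterone replicate 1 and 0.41 against replicate 2. PHGDH, which catalyses the first step of serine synthesis, had levels of 11.16 and 11.35 in RU-486 arrays, against 10.51 and 10.18 in progesterone arrays. PSAT1, the transaminase of the next step, had 10.58 and 10.85 in RU-486 arrays, against 9.96 and 9.71 in progesterone arrays. For these 2 genes the limma adjusted p was 0.401 and 0.344, with differences of 0.91 ± 0.14 and 0.88 ± 0.13. The mitochondrial enzymes MTHFD2 and SHMT2 differed by 0.65 ± 0.11 and 0.43 ± 0.11. Their cytosolic counterparts differed less, with MTHFD1 at 0.06 ± 0.09 and SHMT1 at 0.05 ± 0.10, though the difference between the 2 kinds was not tested. MTHFD1 and SHMT1 were chosen after their values were seen.

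Among amino acid transporters all 12 measured genes had a higher mean after RU-486, where 48.7% of all genes had a higher and 51.3% a lower mean. For 7 of them both RU-486 arrays were higher and for 0 both were lower (17.0% and 10.3% over all genes). At an unadjusted p under 0.05, 6 were higher (3.21% over all genes). The median difference of 0.34 was the same as that against vehicle, 0.34, with progesterone at -0.01. SLC6A9, a glycine transporter, had levels of 9.32 and 9.57 in RU-486 arrays, against 8.68 and 8.24 in progesterone arrays, a difference of 0.98 ± 0.16 (limma adjusted p = 0.444). SLC1A4, which carries serine and alanine, differed by 0.72 ± 0.12 (limma adjusted p = 0.452). SLC7A11, the cystine carrier, had 10.04 and 10.66 in RU-486 arrays, against 9.40 and 10.02 in progesterone arrays. Its lower RU-486 array lay just above its higher progesterone array, and the difference was 0.64 ± 0.28. SLC38A2, a transporter known to be induced by amino acid shortage, differed by 0.09 ± 0.16 with overlapping arrays. SLC7A11 and SLC38A2 were chosen after their values were seen.

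Aminoacyl-tRNA synthetases, which load amino acids on their tRNAs, were split. For 13 of 19 measured genes the RU-486 arrays were both higher, for 0 both lower (17.0% and 10.3% over all genes), and 9 had an unadjusted p under 0.05 (3.21% higher over all genes). GARS1, the glycine enzyme, had levels of 12.15 and 12.33 in RU-486 arrays, against 11.74 and 11.64 in progesterone arrays. YARS1, the tyrosine enzyme, had 10.83 and 10.97 in RU-486 arrays, against 10.33 and 10.16 in progesterone arrays. CARS1 (cysteine) and AARS1 (alanine) differed by 0.50 ± 0.10 and 0.53 ± 0.11. At the other end of the list QARS1 (glutamine), HARS1 (histidine) and VARS1 (valine) differed by -0.01 ± 0.07, 0.03 ± 0.08 and 0.04 ± 0.11, with overlapping arrays. QARS1, HARS1 and VARS1 were chosen after their values were seen. The median over the 19 genes was 0.14, and it was 0.27 against progesterone replicate 1 and 0.16 against replicate 2.

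Chaperones of the endoplasmic reticulum, which a broader unfolded protein response would include, differed by small amounts. Of 17 measured genes 11 were higher and 1 lower in both RU-486 arrays (17.0% and 10.3% over all genes), 2 had an unadjusted p under 0.05, both higher, and the median was 0.07. Without RU-486 replicate 1 the median was 0.11. HSPA5, the chief chaperone of that compartment, had levels of 13.15 and 13.20 in RU-486 arrays, against 13.05 and 12.98 in progesterone arrays, a difference of 0.16 with a limma 95% interval from -0.02 to 0.34. XBP1, a transcription factor of the same response, differed by 0.25 ± 0.08. DNAJB9, a cochaperone, was higher after RU-486 than after progesterone by 0.26 ± 0.11 but lay below vehicle with both, by 0.17 with RU-486 and 0.44 with progesterone.

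CPT1A and SLC25A20, which carry long-chain fatty acids into mitochondria, were the 2 genes over 1.5-fold in the carnitine shuttle and PPAR list. CPT1A, carnitine palmitoyltransferase, had levels of 10.71 and 10.70 in RU-486 arrays, against 9.89 and 9.54 in progesterone arrays and 9.87 and 9.76 in vehicle arrays. SLC25A20, the acylcarnitine carrier, had 8.67 and 8.59 in RU-486 arrays, against 8.05 and 7.97 in progesterone arrays and 8.10 and 8.05 in vehicle arrays. For both genes progesterone lay near vehicle, and the differences were 0.99 ± 0.13 and 0.62 ± 0.08 (limma adjusted p = 0.322 each). HADHB and ACADVL, enzymes of fatty acid oxidation, differed by 0.25 ± 0.08 and 0.19 ± 0.08, with arrays that did not overlap. CPT2, the enzyme that completes the shuttle, differed by 0.05 ± 0.10. PPARA, the fatty acid receptor that controls many genes of the list, differed by -0.09 ± 0.08. CPT2 and PPARA were chosen after their values were seen. Of the 19 measured genes of the carnitine shuttle and PPAR list 6 were higher and 1 lower in both RU-486 arrays, where 17.0% and 10.3% of all genes were. At an unadjusted p under 0.05, 4 were higher and 0 lower (3.21% and 1.41% over all genes). A higher mean after RU-486 was seen for 15 of the 19. The median was 0.03, and it was 0.03 against progesterone replicate 1 and 0.09 against replicate 2.

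Targets of the liver X receptor, a sterol sensor that drives cholesterol efflux, were by group means the list with the lowest median, at -0.14. Of 9 measured, 6 were lower and 1 higher in both RU-486 arrays, where 10.3% and 17.0% of all genes were, and 4 had an unadjusted p under 0.05, all lower. SREBF1, a regulator of fatty acid synthesis, had levels of 10.29 and 10.19 in RU-486 arrays, against 10.82 and 10.75 in progesterone arrays. ABCA1, the cholesterol exporter, had 9.42 and 9.56 in RU-486 arrays, against 9.96 and 10.29 in progesterone arrays and 10.02 and 10.26 in vehicle arrays. In ABCA1 the RU-486 arrays lay below the vehicle arrays as well. The difference was -0.54 ± 0.08 for SREBF1 (limma adjusted p = 0.344). It was -0.63 ± 0.14 for ABCA1 (limma adjusted p = 0.842). Progesterone lay at -0.01 from vehicle in both. MYLIP, which targets the LDL receptor for degradation, and ABCG1, another sterol exporter, differed by -0.35 ± 0.09 and -0.39 ± 0.11. The median of the list was -0.30 against progesterone replicate 1 and -0.04 against progesterone replicate 2. Against replicate 2 alone, genes of G2 and mitosis (-0.12) and interferon-stimulated genes (-0.17) lay lower than this list. Fatty acid and sterol synthesis genes were mixed, with 7 of 22 higher and 4 lower in both arrays. FASN, fatty acid synthase, differed by -0.26 ± 0.10, and CYP51A1 and SQLE, both enzymes of sterol synthesis, by 0.28 ± 0.09 and 0.27 ± 0.11.

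Of the 12 leading genes with lower values after RU-486, SREBF1 and ABCA1 among them, 5 were dim on every array, and in 5 of the 12 progesterone lay farther from vehicle than RU-486 did. KRT15, a keratin, had levels of 7.96 and 7.85 in RU-486 arrays, against 8.34 and 8.60 in progesterone arrays, a difference of -0.56 ± 0.11 (limma adjusted p = 0.778). TNFRSF19, a receptor of the tumour necrosis factor family, had 9.72 and 9.81 in RU-486 arrays, against 10.15 and 10.09 in progesterone arrays, a difference of -0.36 ± 0.08 (limma adjusted p = 0.842). SCUBE3, a secreted protein, and OTUD3, a deubiquitinase, differed by -0.44 ± 0.11 and -0.34 ± 0.08. PNPLA4, FGF16, GNRH1, DNAJC5G and TAAR1, the 5 dim genes, differed by -0.35 to -0.53.

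For 10 of the 11 measured receptors of steroids the arrays of the 2 groups overlapped. PGR, the nuclear progesterone receptor, had levels of 4.49 and 4.75 in RU-486 arrays, against 4.91 and 4.55 in progesterone arrays. Over the 8 arrays its mean was 4.60, above 48.8% of the olfactory receptor genes, so its signal was not above the dim background. NR3C1, the glucocorticoid receptor, had 9.92 and 10.07 in RU-486 arrays, against 9.88 and 10.20 in progesterone arrays, and lay above all olfactory receptor genes. The differences were -0.11 for PGR, with a limma 95% interval from -0.45 to 0.23, and -0.05 for NR3C1, with an interval from -0.34 to 0.25. PGRMC2, a membrane-associated progesterone-binding protein, differed by 0.09, with an interval from -0.15 to 0.33, and PAQR8, a membrane progestin receptor, by -0.01, with an interval from -0.25 to 0.22. PAQR7, a related receptor, ESR1 (estrogen receptor alpha) and NR3C2 (the mineralocorticoid receptor) were dim, at mean levels of 5.87, 5.95 and 5.66. The exception among the 11 was ESR1, with both RU-486 arrays above both progesterone arrays.

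Genes that steroid receptors are known to induce in other cells were mixed. Of 31 measured progesterone receptor targets 9 were higher and 2 lower in both RU-486 arrays (17.0% and 10.3% over all genes), 6 had an unadjusted p under 0.05, all higher, and the median was 0.05. That median was -0.11 against progesterone replicate 1 and 0.14 against replicate 2. The count depended on the progesterone array, since both RU-486 arrays lay above progesterone replicate 2 for 27 of the 31 genes and above replicate 1 for 9, with 49.0% and 34.9% over all genes. Of 29 glucocorticoid receptor targets, which share members with this list, 9 were higher and 2 lower, 4 had an unadjusted p under 0.05, and the median was 0.07. Here too its sign turned with the progesterone array, at -0.0060 against replicate 1 and 0.13 against replicate 2. SGK1, a kinase induced by both kinds of receptor, had levels of 9.37 and 9.48 in RU-486 arrays, against 9.02 and 8.99 in progesterone arrays, a difference of 0.43 ± 0.09 (limma adjusted p = 0.801). TSC22D3, or GILZ, a glucocorticoid-induced leucine zipper protein, had 7.57 and 7.77 in RU-486 arrays, against 7.37 and 7.30 in progesterone arrays. Neither overlapped between the groups. Other textbook targets overlapped: PER1, a clock gene, differed by 0.08 with a limma 95% interval from -0.13 to 0.28, KLF9 by -0.06 from -0.30 to 0.18, and DUSP1, a phosphatase, by 0.07 from -0.23 to 0.38. PER1, KLF9 and DUSP1 were chosen after their values were seen. VEGFA, the angiogenic growth factor, differed by 0.40 ± 0.10, nearly all of it above vehicle (0.38).

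**Figure D3:**
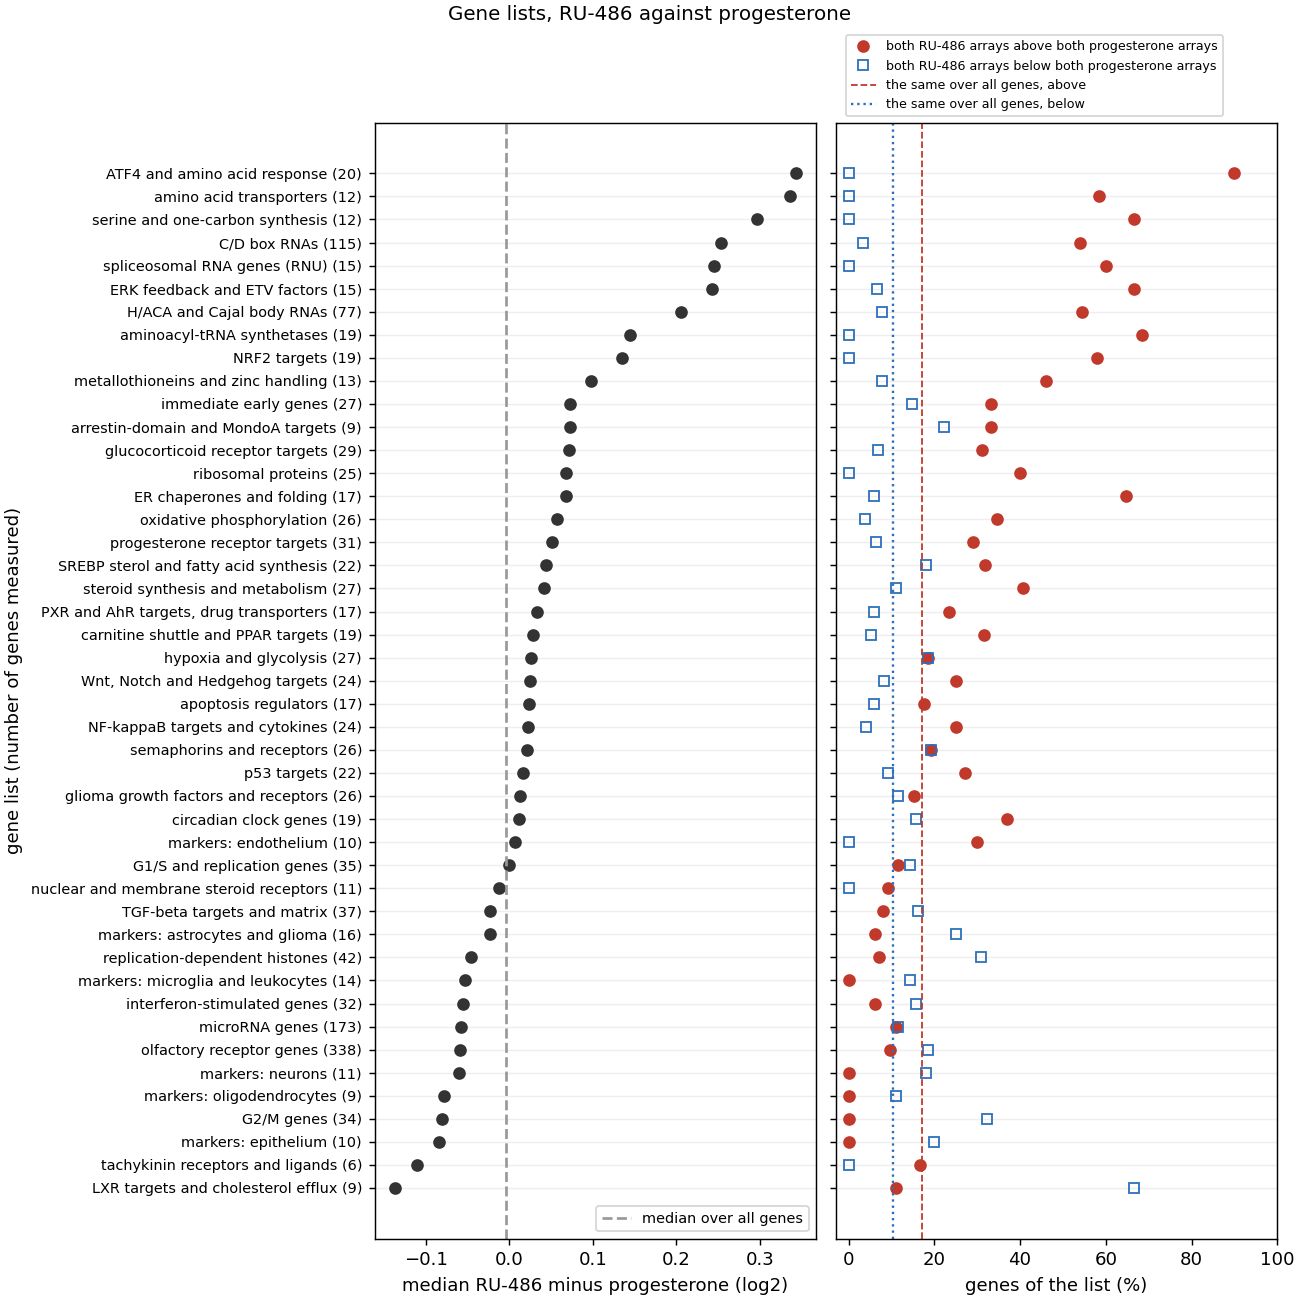
Median RU-486 minus progesterone difference in log2 units (left) and share of genes in percent whose RU-486 arrays both lie above or below both progesterone arrays (right), for gene lists and gene classes, with the values over all genes as vertical lines. The ATF4 list is at the top with a median of 0.34 and the liver X receptor list at the bottom with -0.14.

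Feedback inhibitors and transcription factors downstream of the kinase ERK, which report growth factor signalling, held 0 called genes, and 12 of 15 had a higher mean after RU-486 than after progesterone. Of 15 measured, 10 were higher and 1 lower in both RU-486 arrays (17.0% and 10.3% over all genes), 7 had an unadjusted p under 0.05, all higher, and the median was 0.24. SPRY2, a Sprouty inhibitor of receptor signalling, had levels of 8.87 and 8.89 in RU-486 arrays, against 8.45 and 8.08 in progesterone arrays and 8.50 and 8.45 in vehicle arrays. DUSP6, a phosphatase that acts on ERK, had 9.76 and 9.92 in RU-486 arrays, against 9.37 and 8.91 in progesterone arrays and 9.49 and 9.23 in vehicle arrays. ETV1, a transcription factor activated through ERK, had 8.08 and 8.32 in RU-486 arrays, against 7.67 and 7.74 in progesterone arrays. For ETV1 progesterone was the group that lay away from vehicle, by -0.34 against 0.16 for RU-486. The list median was 0.12 for RU-486 against vehicle and -0.15 for progesterone against vehicle. On average over the list only progesterone replicate 2 lay below vehicle. The mean deviation from each gene's mean over the 8 arrays was -0.03 and -0.31 in progesterone arrays, against -0.05 and -0.05 in vehicle arrays. The median of RU-486 minus progesterone was 0.13 against progesterone replicate 1 and 0.36 against replicate 2.

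Antioxidant targets of the transcription factor NRF2 held 0 called genes. Of 19 measured, 11 were higher and 0 lower in both RU-486 arrays (17.0% and 10.3% over all genes), 4 had an unadjusted p under 0.05, and the median was 0.14. After a further quantile normalization the median was 0.08. HMOX1, heme oxygenase, had levels of 10.43 and 10.47 in RU-486 arrays, against 10.14 and 9.62 in progesterone arrays, a difference of 0.57 ± 0.18 (limma adjusted p = 0.935). SRXN1, TXNRD1 and GCLC, which serve peroxide reduction and glutathione synthesis, differed by 0.36 ± 0.11, 0.37 ± 0.13 and 0.30 ± 0.10. Metal-binding metallothioneins and zinc handling genes had 6 of 13 higher and 1 lower, with MT1F at 0.32 ± 0.12.

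Differences over 1.5-fold were counted without a test, and 90 genes (0.489%) passed that size, 59 of them higher and 31 lower after RU-486. In the 59 higher genes the groups stood apart in 57 and the steroids lay on opposite sides of vehicle in 46. Choice by the size of the difference favours both. RU-486 was the farther from vehicle in 25 and progesterone in 34. 24 of the 59 were small RNA genes. Among the protein-coding ones FABP4, a fatty acid binding protein, had levels of 7.41 and 7.70 in RU-486 arrays, against 6.21 and 6.59 in progesterone arrays and 7.57 and 7.01 in vehicle arrays. The progesterone arrays were the lowest of the 6, and RU-486 overlapped vehicle. The difference of 1.16 ± 0.21 (limma adjusted p = 0.532) was made up of 0.27 for RU-486 and -0.89 for progesterone against vehicle. AKR1B10, an aldo-keto reductase, showed the same order, with 0.22 for RU-486 and -0.62 for progesterone against vehicle. GDF15, a stress-induced cytokine, had 9.41 and 10.01 in RU-486 arrays, against 8.84 and 8.41 in progesterone arrays and 8.99 and 8.72 in vehicle arrays. There RU-486 was the group away from vehicle, by 0.86 against -0.23 for progesterone. CSTA, a protease inhibitor, differed by 0.71 ± 0.12, with 0.29 for RU-486 and -0.42 for progesterone. FABP4, AKR1B10 and CSTA were chosen after their values were seen.

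**Figure D4:**
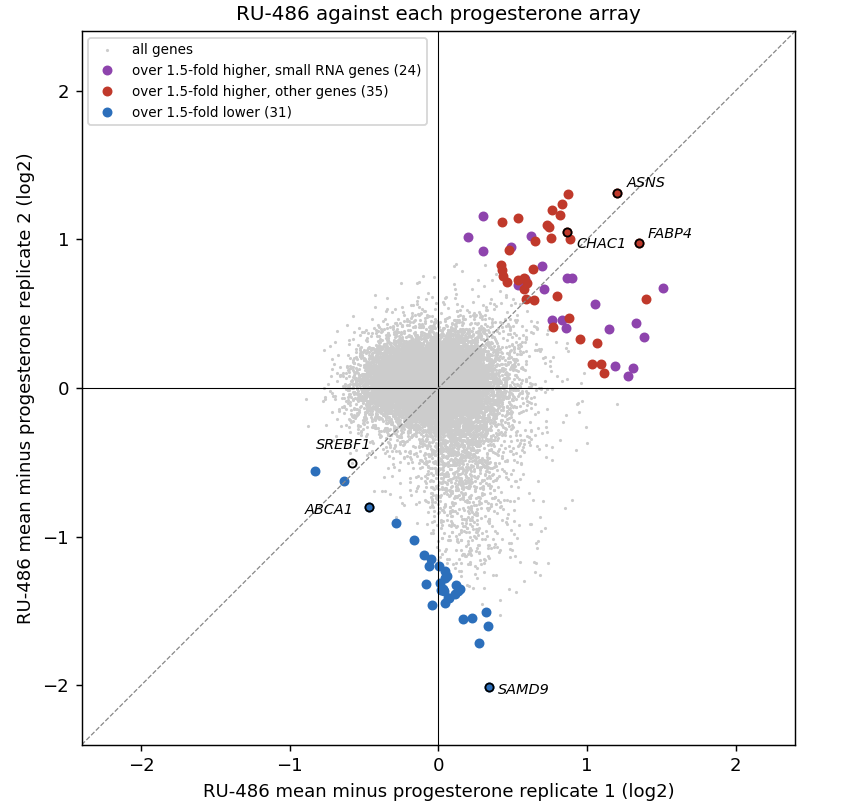
RU-486 mean minus progesterone replicate 1 (horizontal) and minus progesterone replicate 2 (vertical) in log2 units for all genes, with the 90 genes over 1.5-fold in colour and a dashed line where the 2 agree. The 59 higher genes spread around the dashed line, while 25 of the 31 lower genes hang near 0 on the horizontal axis and below -1 on the vertical one.

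The 31 genes over 1.5-fold lower after RU-486 rested mostly on 1 progesterone array. By group means, RU-486 was farther from vehicle than progesterone in all 31. In 25 of them the RU-486 and progesterone arrays overlapped, and in all 25 progesterone replicate 2 was the highest of the 8 arrays, 1.02 to 2.35 above replicate 1 with a median of 1.44. SAMD9, an interferon-induced gene, had levels of 6.27 and 6.65 in RU-486 arrays, against 6.12 and 8.47 in progesterone arrays. HMMR, a mitotic hyaluronan receptor, had 8.61 and 8.85 in RU-486 arrays, against 8.69 and 10.18 in progesterone arrays. CENPF, a centromere protein, had 9.22 and 9.37 in RU-486 arrays, against 9.26 and 10.64 in progesterone arrays. In all 3 the RU-486 arrays lay beside progesterone replicate 1. The 6 lower genes with no overlap included ABCA1 and the spindle gene DLGAP5, at 9.23 and 9.42 in RU-486 arrays, against 9.49 and 10.35 in progesterone arrays. SAMD9, HMMR and CENPF were chosen after their values were seen. Cell cycle genes of G2 and mitosis also followed progesterone replicate 2. Their median was -0.08, with 0.01 against replicate 1 and -0.12 against replicate 2. Of 34 measured, 11 were lower and 0 higher in both RU-486 arrays (10.3% and 17.0% over all genes). Against vehicle the list median was -0.09 for RU-486 and 0.0017 for progesterone. The mean after RU-486 lay above vehicle for 2 of the 34, where it did for 10176 of all 18417 genes. Interferon-stimulated genes had a median of -0.05, with 0.04 against replicate 1 and -0.17 against replicate 2, and 5 of 32 were lower (15.6%, near the share over all genes) and 2 higher in both arrays. Replication-dependent histones had 13 of 42 lower and 3 higher, with a median of -0.05, which was -0.08 against replicate 1 and -0.05 against replicate 2.

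Small nuclear and nucleolar RNA genes held 0 called genes, and about as many stood apart with higher values after RU-486 as did not. C/D box RNAs, many of which guide methylation of ribosomal RNA, had 62 of 115 genes higher and 4 lower in both RU-486 arrays. Over all genes the shares were 17.0% and 10.3%. Of the C/D box RNAs, 30 had an unadjusted p under 0.05, all higher. Their median difference was 0.25, with 0.32 against progesterone replicate 1 and 0.14 against replicate 2. Against vehicle the median was 0.03 for RU-486 and -0.24 for progesterone. H/ACA and Cajal body RNAs, many of which guide pseudouridylation, had 42 of 77 higher and 6 lower, with a median of 0.21. Spliceosomal RNA genes had 9 of 15 higher and 0 lower, with a median of 0.25, which was 0.26 against progesterone replicate 1 and 0.41 against replicate 2. RNU4-2, a spliceosomal U4 gene, had levels of 7.34 and 7.48 in RU-486 arrays, against 6.70 and 6.75 in progesterone arrays and 7.06 and 7.21 in vehicle arrays. SNORA14A, an H/ACA RNA, had 9.76 and 9.82 in RU-486 arrays, against 9.26 and 9.10 in progesterone arrays and 10.00 and 10.02 in vehicle arrays. In SNORA14A the progesterone arrays were the lowest and the vehicle arrays the highest. RNU5A-1, a U5 gene, differed in this, with RU-486 as the group away from vehicle, at 7.85 and 7.73 in RU-486 arrays, against 7.21 and 7.06 in progesterone arrays and 7.27 and 7.12 in vehicle arrays. RNU4-2, SNORA14A and RNU5A-1 were chosen after their values were seen.

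The 20 SNORD116 copies on chromosome 15 all had a higher mean after RU-486 and 17 stood apart, with a median of 0.46, but they are near-identical and their probe sets may share signal, so they are uncertain as separate genes. Their median was 0.60 against progesterone replicate 1 and 0.23 against replicate 2. Without them the C/D box median was 0.21 over 95 genes, with 45 higher and 4 lower, and it was 0.22 against replicate 1 and 0.12 against replicate 2. The low level of C/D box RNAs was strongest in progesterone replicate 1. Their mean deviation from each gene's mean over the 8 arrays was 0.06 and 0.12 in RU-486 arrays, against -0.27 and -0.07 in progesterone arrays and 0.13 and 0.04 in vehicle arrays. The same replicate 1 was the array in which the dim olfactory receptor genes read highest, at 0.16, beside -0.02 and 0.0049 in RU-486 arrays and -0.06 in progesterone replicate 2. Whether the background of that array had a part in the small RNA differences was not tested. MicroRNA genes had 19 of 173 higher and 20 lower (17.0% and 10.3% over all genes), with a median of -0.06 that was -0.11 against replicate 1 and 0.04 against replicate 2.

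**Figure D5:**
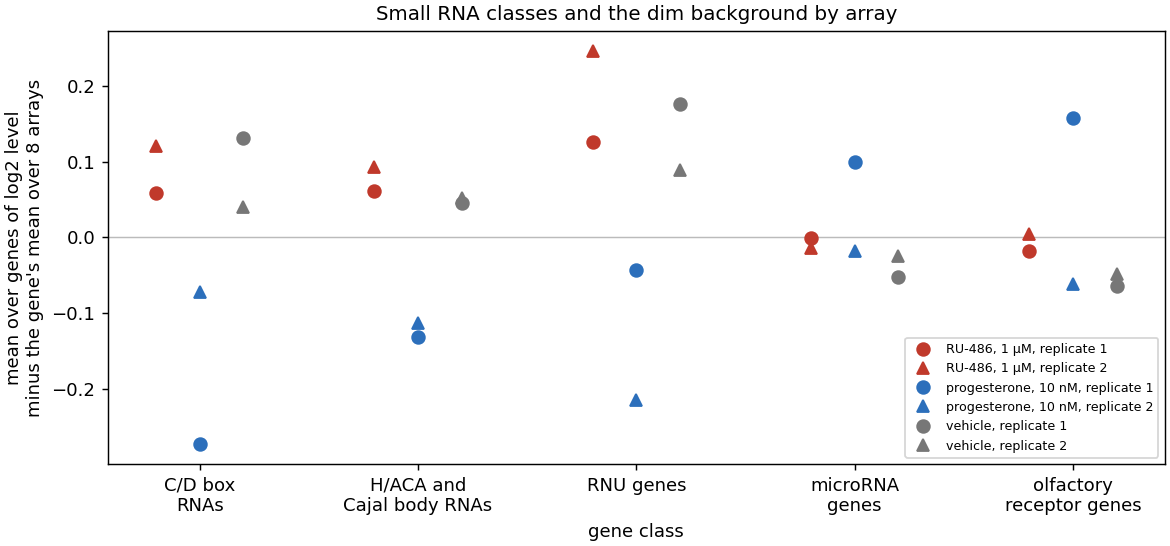
Mean over the genes of a class of the log2 level minus the gene's mean over 8 arrays, for each RU-486, progesterone and vehicle array. The progesterone arrays (blue) are the lowest of the 6 for C/D box, H/ACA and Cajal body and RNU genes, while progesterone replicate 1 is the highest for microRNA and olfactory receptor genes.

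Markers of other cell types mostly overlapped between the groups, and a part of them was dim. Dim on every array were 4 of 11 for neurons, 5 of 9 for oligodendrocytes and 8 of 14 for microglia and leukocytes. For endothelium it was 6 of 10 and for epithelium 4 of 10. The number of markers higher in both RU-486 arrays was 0 of 11 for neurons, 0 of 9 for oligodendrocytes, 0 of 14 for microglia and leukocytes, 3 of 10 for endothelium and 0 of 10 for epithelium, where 17.0% of all genes were. The number lower in both was 2 for neurons, 1 for oligodendrocytes, 2 for microglia and leukocytes, 0 for endothelium and 2 for epithelium, where 10.3% of all genes were. Medians ran from -0.08 for epithelium and oligodendrocytes to 0.01 for endothelium. Against progesterone replicate 1 they ran from -0.27 to -0.04, and against replicate 2 from 0.02 to 0.09. The leukocyte antigen PTPRC was dim, at 3.45 and 3.37 in RU-486 arrays, against 3.60 and 3.45 in progesterone arrays. Each of these 5 marker lists read highest in progesterone replicate 1, as the olfactory receptor genes did.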

How the data were processed

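Total RNA of U373 cells was measured on 8 whole-transcript arrays, with groups and replicate numbers taken from the sample titles. The files hold 1 log2 value for each of 33297 probe sets on every array, as the authors deposited them. RMA, oligo and limma are named, with neither version nor setting, per the submitters' processing notes. RMA, as a method, makes the distribution of values the same on every array and compresses differences of dim genes. The platform annotation gives 1 symbol to 19460 probe sets (19429 of them matched to RefSeq), several to 1754 and lists no gene for 12083. For 769 genes with several probe sets the one with the highest mean was kept, without a filter on dim genes. The 13837 other probe sets, tested apart, gave 0 calls, with 579 at an unadjusted p under 0.05.

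The model was lmFit and eBayes of limma 3.58.1, run in R 4.3.3 on all 8 arrays, with 4 residual degrees of freedom, after the script was tested on simulated data. Intervals are those of the moderated test. 40 gene lists with 852 symbols, 784 of them measured, were described by counts and medians, without a set test. The compared groups and the lists were chosen with earlier results of these data known. The rule for named genes took 12 genes each way by p among those with no overlap between arrays, up to 4 genes of each list by p, and fixed receptors, and left out small RNA, LOC and similar symbols. Some genes are not reported here. Replicate 1 minus replicate 2 correlated at 0.32 across genes between RU-486 and progesterone, and at 0.20 to 0.51 between the other pairs of groups. With 2 numbers a pairing cannot be settled, so the replicate number was used only in an alternative. Further alternatives were the 4 compared arrays alone, each array left out, array weights, quantile normalization, centring, a filter on dim genes, other uses of several probe sets, a trended robust prior and a principal component as covariate.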

Additional observations from a re-analysis of the deposited data

How the results depend on the processing

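With 2 arrays a group, 18 alternatives were fitted with limma. The count of called genes was 0 in 16 of them. It was 1 (ASNS, limma adjusted p = 0.0416) with a trended robust prior. It was 2 (CPT1A, limma adjusted p = 0.0248, and CHAC1, limma adjusted p = 0.0486) with the principal component of the deviations as covariate. That covariate was taken from the same deviations within groups that give the test its spread, and so lowers that spread by construction. Its p-values can be too small, and its 2 calls and its counts are no support. The 24 leading genes kept the direction of their difference in all 426 values obtained, 3 of which passed the threshold. These genes were chosen for arrays that do not overlap, so leaving out an array, blocking or weighting could not reverse a direction. Genes over 1.5-fold numbered 90 to 639 with each array left out in turn, and the count was above 1.5 times that reported without progesterone replicate 1 (639, of which 74 higher and 565 lower), without progesterone replicate 2 (265, of which 170 higher and 95 lower) and without RU-486 replicate 2 (166, of which 48 higher and 118 lower). Genes at an unadjusted p under 0.05 numbered 393 to 3838 with each array left out, with more lower than higher without progesterone replicate 2 (1382 higher, 2456 lower), 414 with the 4 compared arrays alone, 401 with array weights and 2647 with the covariate (1227 higher, 1420 lower). With the replicate number as a block the counts were 0 called and 1212 at an unadjusted p under 0.05, of which 720 higher and 492 lower. Of 720 list medians 64 moved by more than the spread between replicates. The ATF4 list kept a median between 0.31 and 0.43. Dim genes have compressed differences and no absolute zero.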

Other observations

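Single genes of other pathways also separated the arrays, with 0 called by limma. TACR1, the receptor of the neuropeptide substance P, had levels of 9.37 and 9.38 in RU-486 arrays, against 8.86 and 8.92 in progesterone arrays and 9.07 and 8.92 in vehicle arrays. The difference was 0.49 ± 0.08 (limma adjusted p = 0.493), with 0.38 for RU-486 and -0.11 for progesterone against vehicle, while the other 5 measured tachykinin receptors and ligands overlapped. NPAS2, a transcription factor of the circadian clock, had 10.86 and 10.93 in RU-486 arrays, against 10.56 and 10.51 in progesterone arrays, a difference of 0.36 ± 0.08 (limma adjusted p = 0.829). Of 19 clock genes 7 were higher and 3 lower in both RU-486 arrays (17.0% and 10.3% over all genes). DKK1, a secreted Wnt inhibitor, had 12.27 and 12.51 in RU-486 arrays, against 12.08 and 11.93 in progesterone arrays, a difference of 0.39 ± 0.11. SEMA6D, a semaphorin that guides cell migration, lay lower, at 8.55 and 8.48 in RU-486 arrays, against 8.88 and 9.11 in progesterone arrays. IL6, an inflammatory cytokine, had 7.17 and 7.28 in RU-486 arrays, against 6.91 and 6.83 in progesterone arrays and 7.23 and 7.21 in vehicle arrays, so that the progesterone arrays were the ones away from vehicle.

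Housekeeping gene groups differed by small amounts. Of 25 ribosomal protein genes 10 were higher and 0 lower in both RU-486 arrays, with a median of 0.07, and of 26 oxidative phosphorylation genes 9 were higher and 1 lower, with a median of 0.06. Over all genes the shares were 17.0% higher and 10.3% lower. The ribosomal median was 0.03 against progesterone replicate 1 and 0.08 against replicate 2, and the oxidative phosphorylation median 0.02 and 0.07 in the same order. Against vehicle, the ribosomal protein genes had a median of -0.04 with progesterone. Immediate early genes had 9 of 27 higher and 4 lower, among them NR4A2, an orphan nuclear receptor, with a difference of 0.38 ± 0.12 (limma adjusted p = 0.935). The median of the immediate early genes was 0.07, and it was -0.07 against replicate 1 and 0.14 against replicate 2. KLF10, a transcription factor listed here with the MondoA targets, differed by 0.32 ± 0.08 (limma adjusted p = 0.856).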
